A study of Homo sapiens with 12 samples.

Results

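Base excision repair removes small damaged bases from DNA, and single-strand break repair rejoins nicked strands, many of which arise as base excision intermediates. A DNA glycosylase cuts out the damaged base, an endonuclease opens the strand at the empty site, and a polymerase and a ligase fill and seal the gap on a scaffold protein. PARP1 detects the open strand and marks it with poly(ADP-ribose), which brings XRCC1 and its partners to the break.

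The data are RNA levels of 10 such genes, taken by gene name from a table of 62700 genes: the glycosylases UNG, OGG1, MUTYH, NEIL1, NEIL2 and NEIL3, the endonuclease APEX1, the break sensor PARP1, the scaffold XRCC1 and the gap-filling polymerase POLB. All 10 names were found and all 10 passed the filter on low counts. Poly(A) RNA was sequenced from HCT116 TIM-mAID cells, a human colorectal carcinoma line with a knocked-in mini auxin-inducible degron (mAID) on TIM, read here as TIMELESS, a protein of the replication fork. The 12 libraries form 4 groups of 3 biological replicates, all harvested after 40 h. Cells received 5-Ph-IAA with ATRi, 5-Ph-IAA alone, ATRi alone, or DMSO. 5-Ph-IAA is an auxin analogue that triggers degradation of degron-tagged proteins, and ATRi is ceralasertib, an inhibitor of the checkpoint kinase ATR. Each compound was used at 1 µM, from stocks in DMSO. Every group, DMSO included, carries the tagged allele, so no group shows the untagged parent line, and the labels do not say whether the line is a single clone. Because the degron acts on protein, TIMELESS RNA does not check the depletion.

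The libraries held 27.7 M to 34.7 M estimated counts (M, mega). Mitochondrially encoded genes took 13.9%, 12.03% and 10.7% of the counts in the combination libraries, 13.6%, 10.0% and 6.79% with 5-Ph-IAA, 13.4%, 11.1% and 7.40% with ATRi, and 7.85%, 14.9% and 6.63% with DMSO. DMSO replicate 2 thus stood apart from the other DMSO libraries. The summed level of 7 colorectal epithelial markers was 9993 to 11436 CPM in the combination against 4294 to 6384 CPM in DMSO, with KRT8, KRT18 and KRT19 past the threshold, and VIL1 was too low to test. The keratins carry this sum: EPCAM averaged 358 CPM in the combination against 455 CPM in DMSO, a log2 change of -0.35 ± 0.18 (edgeR adjusted p = 0.243), and CDH1 (0.06 ± 0.16) and CDX2 (0.17 ± 0.13) did not pass either. Of the leukocyte markers, CD68 had 28.7, 37.1 and 35.1 CPM in the combination and 9.70, 7.84 and 8.75 CPM in DMSO, and PTPRC and CD3E were too low to test. Fibroblast markers summed to 43.6 to 69.9 CPM in the combination and 35.7 to 106 CPM in DMSO, mostly COL1A1, and endothelial markers to 1.47 to 2.03 CPM in the combination and 0.992 to 2.04 CPM in DMSO. The part of these shifts in the results below was not tested.

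Promoter sequences are shown for NEIL3 and XRCC1, the repair genes that fell in the combination, and for APEX1, whose level barely moved. They are the 250 bases before a gene's start in the RefSeq table for GRCh38.p14, read along the gene's own strand, at chr4:177309624-177309873 (plus strand), chr19:43575528-43575777 (minus strand) and chr14:20454976-20455225 (plus strand). Of the 10 genes, 8 had an entry in the table. Capitals mark TTTGAA, the core of the cell cycle genes homology region, and CCAAT, the box bound by NF-Y, on either strand, so ATTGG marks CCAAT on the other strand.
NEIL3: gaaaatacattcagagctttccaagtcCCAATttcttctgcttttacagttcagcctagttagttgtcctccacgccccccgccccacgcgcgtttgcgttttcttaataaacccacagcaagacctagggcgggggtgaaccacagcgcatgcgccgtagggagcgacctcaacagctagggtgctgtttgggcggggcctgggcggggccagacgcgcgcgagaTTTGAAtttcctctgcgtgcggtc
XRCC1: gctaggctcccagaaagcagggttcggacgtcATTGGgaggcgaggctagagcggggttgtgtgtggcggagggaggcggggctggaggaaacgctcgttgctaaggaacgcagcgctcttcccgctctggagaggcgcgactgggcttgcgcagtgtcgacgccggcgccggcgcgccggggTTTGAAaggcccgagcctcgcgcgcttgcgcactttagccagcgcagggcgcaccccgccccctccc
APEX1: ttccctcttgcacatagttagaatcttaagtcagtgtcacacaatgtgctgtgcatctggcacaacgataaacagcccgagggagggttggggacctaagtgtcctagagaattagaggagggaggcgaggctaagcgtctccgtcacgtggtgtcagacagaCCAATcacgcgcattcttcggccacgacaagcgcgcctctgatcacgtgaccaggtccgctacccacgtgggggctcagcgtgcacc
TTTGAA began 24 bases before the NEIL3 start and 67 bases before the XRCC1 start, and was not in the APEX1 window. CCAAT began 223 bases before the NEIL3 start, 218 before the XRCC1 start on the opposite strand, and 87 before the APEX1 start. Among all 35116 promoter windows of the same length, 13.3% held TTTGAA and 32% held CCAAT on either strand. The E2F forms TTTGGCGC, TTTCCCGC, TTTGCCGC and TTTCGCGC, of which 2.79% of windows held at least 1, were in none of the 3 promoters. A second UNG start held TTTGAA and TTTGCCGC, and a second MUTYH start held TTTGAA. The motifs were chosen with the fall of NEIL3 known, several genes have more than 1 listed start, and the matches are descriptions of letters only.

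**Figure D1:**
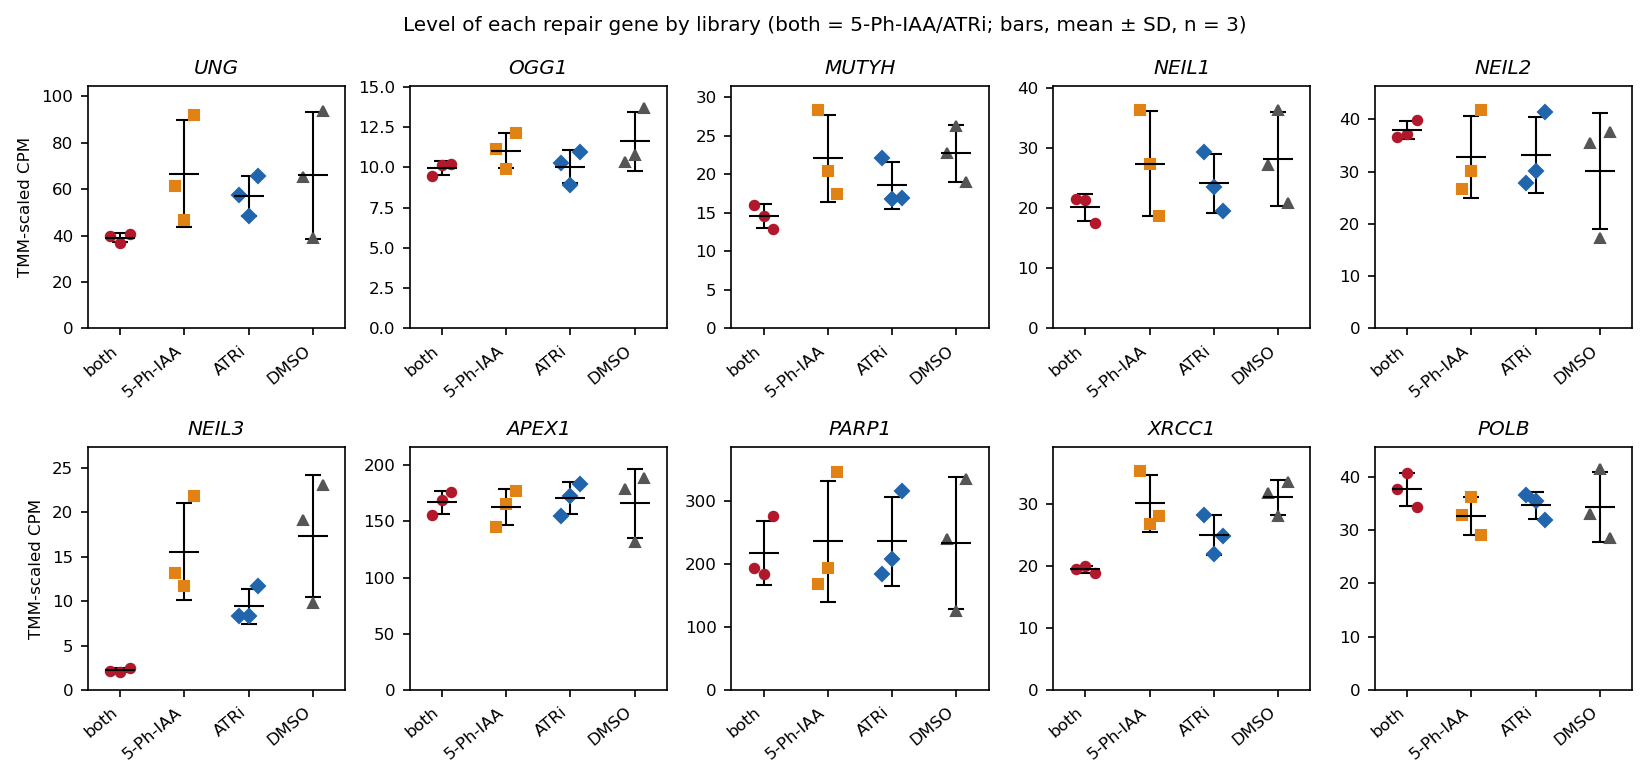
Level of each of the 10 repair genes (y axis, TMM-scaled CPM, from 0) in the 12 libraries, by treatment (x axis; both = 5-Ph-IAA/ATRi). Points are libraries and bars are mean ± SD with n = 3. NEIL3 sits between 2.07 and 2.49 CPM in the combination, below all other libraries, and PARP1 and APEX1 overlap across the 4 groups.

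Per kilobase of transcript, APEX1, the endonuclease that opens abasic sites, was the most abundant of the 10 in every group, at 112 ± 7.05 CPM per kb in the combination and 112 ± 20.5 CPM per kb in DMSO (SD, n = 3 each). PARP1 followed at 55.1 ± 13.0 in the combination and 59.1 ± 26.5 CPM per kb in DMSO. UNG, at 18.3 ± 0.920 CPM per kb in the combination and 31.0 ± 12.9 in DMSO, and POLB, at 28.3 ± 2.39 CPM per kb in the combination and 25.8 ± 4.92 in DMSO, were next. In DMSO the ranges of PARP1, UNG and POLB did not all separate, UNG overlapping both others. Also overlapping there were those of MUTYH, NEIL2 and XRCC1, whose means were 11.8, 11.3 and 11.1 CPM per kb. NEIL1 at 7.48 and NEIL3 at 7.20 CPM per kb in DMSO overlapped each other and OGG1, whose mean of 5.23 CPM per kb was the lowest there. In the combination NEIL3 was the lowest, at 0.918 ± 0.0988 CPM per kb. Lengths are those of the longest coding transcript in GENCODE v29, which may not be the annotation the authors counted with.

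In the combination against DMSO, 2 of the 10 genes fell, NEIL3 and XRCC1, none rose, and 8 did not pass the test, where 13.1% of the 18049 genes tested changed in either direction, 6.89% falling and 6.24% rising. The median log2 change of the 10 was -0.35, against -0.02 over all genes tested. Libraries of the groups did not overlap, with the combination lower, for 4 of the 10 (OGG1, MUTYH, NEIL3 and XRCC1), where 15.9% of all genes tested were lower without overlap. Less RNA per cell and fewer cells of a kind that express a gene cannot be told apart in bulk RNA.

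NEIL3, a glycosylase known for oxidised bases in single-stranded DNA and for unhooking some interstrand crosslinks, showed the widest difference. The gene (ENSG00000109674.4) lies at chr4:177309874-177371268 on the plus strand of GRCh38.p14. Its level was 2.08, 2.07 and 2.49 CPM in the combination libraries, 13.2, 11.7 and 21.8 CPM with 5-Ph-IAA, 8.32, 8.28 and 11.7 CPM with ATRi, and 19.1, 9.77 and 23.1 CPM with DMSO. Every combination library lay below every other library, and DMSO replicate 2 lay within the ATRi range. The log2 change in the combination against DMSO was -2.97 ± 0.34 (standard error), a fitted ratio of 0.128 (edgeR quasi-likelihood F test, adjusted p = 0.000347), and 36 of the 18049 genes had a lower value. It fell under all 16 alternatives to this fit, with edgeR, DESeq2 and limma-voom adjusted p from 3.38e-15 to 0.00392. The lowest NEIL3 library held 57 counts, so its combination level rests on few reads.

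XRCC1, the scaffold that holds the gap-filling and ligation enzymes, was lower by less but with little spread. The gene (ENSG00000073050.12) lies at chr19:43543311-43575527 on the minus strand. Its level was 19.5, 20.1 and 18.8 CPM in the combination, 35.4, 26.8 and 28.1 CPM with 5-Ph-IAA, 28.3, 21.9 and 24.9 CPM with ATRi, and 31.7, 28.1 and 33.6 CPM with DMSO. All combination libraries lay below all others. The log2 change in the combination against DMSO was -0.68 ± 0.14 (edgeR adjusted p = 0.00964), and it held in all 16 alternatives, with adjusted p from 9.91e-05 to 0.0438.

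Among the other glycosylases, MUTYH, which removes adenine paired with an oxidised guanine, had 16.0, 14.6 and 12.9 CPM in the combination, against 22.8, 26.3 and 19.0 CPM in DMSO. These groups did not overlap, and the log2 change of -0.64 ± 0.20 did not pass (edgeR adjusted p = 0.0574, and 0.000433 to 0.182 over the 16 alternatives). It passed without DMSO replicate 3 (-0.76, adjusted p = 0.0494), with total counts (0.0373), with DESeq2 (0.0199), with the replicate block (0.00700) and with the mitochondrial covariate (0.000433). UNG, which removes uracil, had 39.6, 36.8 and 40.5 CPM in the combination, against 65.1, 39.0 and 93.8 CPM in DMSO, where replicate 2 lay inside the combination range. Its log2 change was -0.76 ± 0.30 (edgeR adjusted p = 0.124), and without DMSO replicate 2 it was -1.03 (adjusted p = 0.0232) and without DMSO replicate 3 it was -0.42 (adjusted p = 0.369), within 0.0210 to 0.369 over the alternatives.

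OGG1, which removes oxidised guanine, had 9.45 to 10.2 CPM in the combination and 10.3 to 13.7 CPM in DMSO, with a log2 change of -0.22 ± 0.15 (edgeR adjusted p = 0.382). NEIL1, another glycosylase for oxidised bases, had 17.6 to 21.5 CPM in the combination and 20.8 to 36.4 CPM in DMSO, a log2 change of -0.48 ± 0.26 (edgeR adjusted p = 0.270). NEIL2, its relative, had 36.7 to 39.9 CPM in the combination and 17.3 to 37.5 CPM in DMSO, a log2 change of 0.33 ± 0.27 (edgeR adjusted p = 0.487). NEIL1 and NEIL2 overlapped between these groups. DMSO replicate 2 was the highest DMSO library for NEIL1 and the lowest for NEIL2. Without it the log2 change was -0.25 for NEIL1 and 0.05 for NEIL2, and without DMSO replicate 3 that of OGG1 was -0.09.

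The enzymes that act after the glycosylases, other than XRCC1, showed log2 changes near 0 in the combination against DMSO, with intervals that leave room for moderate shifts. APEX1 had 156, 169 and 176 CPM in the combination, against 179, 131 and 188 CPM in DMSO, a log2 change of 0.01 ± 0.15. PARP1 had 193, 184 and 277 CPM in the combination, against 241, 126 and 335 CPM in DMSO, a log2 change of -0.10 ± 0.37. POLB had 37.6, 40.8 and 34.4 CPM in the combination, against 33.0, 41.4 and 28.5 CPM in DMSO, a log2 change of 0.13 ± 0.15, which was 0.0084 without DMSO replicate 3 and 0.29 without DMSO replicate 2. All 3 overlapped between the groups.

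**Figure D2:**
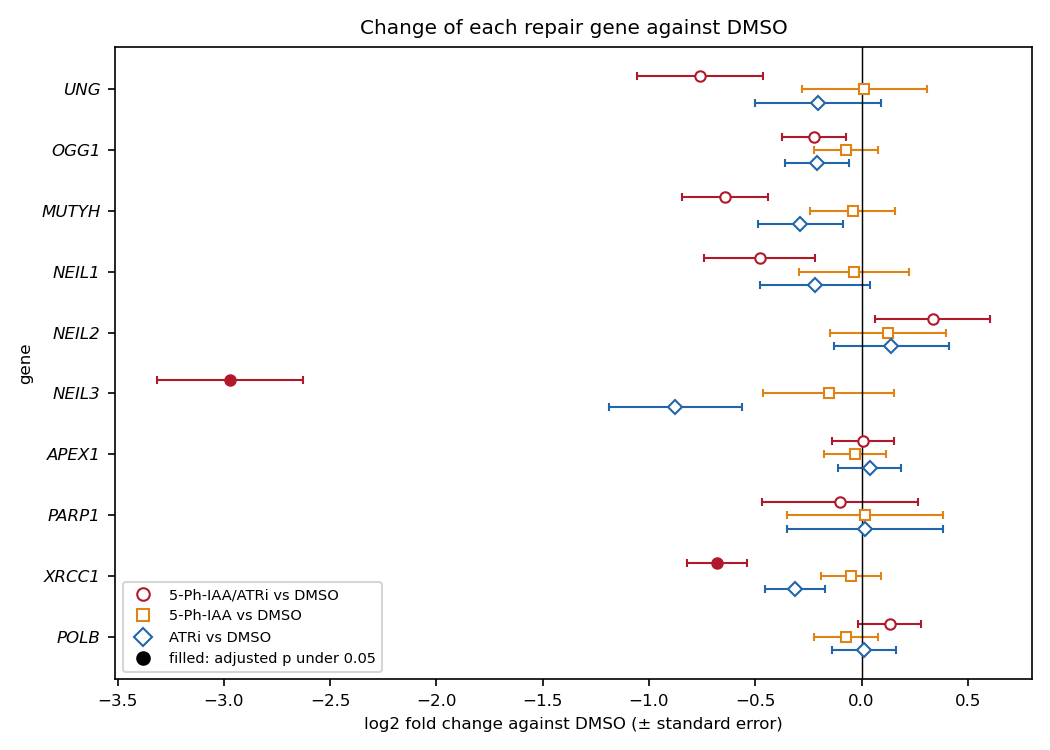
log2 fold change against DMSO (x axis) ± standard error of the 10 repair genes (y axis), for 5-Ph-IAA/ATRi (circles), 5-Ph-IAA (squares) and ATRi (diamonds). Filled symbols passed the threshold of 0.05 on the adjusted p: NEIL3 at -2.97 and XRCC1 at -0.68 in the combination.

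Neither compound alone gave a call among the 10 genes with edgeR, DESeq2 or limma-voom, where 0.00554% of genes tested changed with 5-Ph-IAA and 0.0665% with ATRi. With 5-Ph-IAA against DMSO none of the 10 had an unadjusted p under 0.05, and the changes lay between -0.16 (NEIL3) and 0.13 (NEIL2) on the log2 scale. With ATRi against DMSO, 2 of the 10 had an unadjusted p under 0.05, where 4.86% of all genes tested did with ATRi and 1.32% with 5-Ph-IAA. NEIL3 stood at -0.88 ± 0.31 (edgeR adjusted p = 0.820) and XRCC1 at -0.31 ± 0.14 (edgeR adjusted p = 1.00). For all 10 genes the libraries of 5-Ph-IAA or ATRi overlapped those of DMSO, where 3.37% (5-Ph-IAA) and 8.8% (ATRi) of all genes tested did not overlap, in either direction.

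Against 5-Ph-IAA alone, where 9.41% of genes tested changed, NEIL3 and XRCC1 fell again in the combination. NEIL3 changed by -2.81 ± 0.34 on the log2 scale (edgeR adjusted p = 0.000781) and passed in all 16 alternatives. XRCC1 changed by -0.63 ± 0.14 (edgeR adjusted p = 0.0183), and this call was lost without any 1 of the combination libraries or 5-Ph-IAA replicate 1. Adjusted p in those 4 fits was 0.0673, 0.0577, 0.0755 and 0.0571, within 0.000459 to 0.0882 over all alternatives. It was also lost with only the groups compared (0.0532) and with the 8 libraries left when the most mitochondrial one of each group was dropped (0.0882). Against ATRi alone, where 3.51% of genes tested changed, only NEIL3 passed among the 10, with a log2 change of -2.09 ± 0.34 (edgeR adjusted p = 0.00885). It did not pass without combination replicate 1 (adjusted p = 0.0536) or replicate 2 (0.0526), within 4.17e-07 to 0.0541 over all alternatives. The same 8 libraries gave 0.0541. MUTYH, at -0.60 ± 0.20 against 5-Ph-IAA (edgeR adjusted p = 0.0889), passed there without 5-Ph-IAA replicate 3 (-0.76, adjusted p = 0.0461) and with DESeq2 (0.0383), within 0.00107 to 0.273 over the alternatives. In the comparison with 5-Ph-IAA the replicate numbers were taken as pairs from correlations in these data. The labels do not say what these numbers share, and the part of the mitochondrial share in those correlations was not tested. With the number as a block in a fit of all 12 libraries, UNG (-0.71 ± 0.18, edgeR adjusted p = 0.0205) and MUTYH (-0.58 ± 0.14, edgeR adjusted p = 0.0143) fell too. This made 4 of the 10 in place of 2, where 19.6% of all genes tested passed with the block in place of 9.41%. The block was estimated from the ATRi and DMSO libraries as well, so this is not a paired test of the combination against 5-Ph-IAA. UNG, MUTYH, NEIL3 and XRCC1 were lower in every combination library than in every library of either single compound, where 14% of all genes tested were lower without overlap in each of these comparisons. The 3 comparisons of the combination share its libraries.

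The interaction, which sets the log2 change in the combination against the sum of the changes with each compound, passed for 0.0776% of genes tested and for none of the 10. NEIL3 had an interaction of -1.94 ± 0.45 (edgeR adjusted p = 0.234, unadjusted 0.00124), the only 1 of the 10 with an unadjusted p under 0.05, where 7.3% of all genes tested had one. It passed with DESeq2 (adjusted p = 0.0105), with no count filter (0.0357), with the replicate number as a block (0.0103) and with the mitochondrial share as a covariate (0.00398), and ranged up to 0.800 over the 21 alternatives. XRCC1 had an interaction of -0.32 ± 0.20 (edgeR adjusted p = 0.885).

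Of the 10 genes, 8 had deviations from their group means that correlated beyond 0.5 in size with the mitochondrial share, where 70.8% of all genes tested did, so the share of the 10 is near the background. The 12 libraries also differed in depth, and the part of depth or RNA preparation in these correlations was not tested. For the deviations from the group means, Pearson's r with the mitochondrial share was -0.97 for APEX1, -0.96 for NEIL2 and -0.95 for PARP1. It was -0.89 for NEIL3 and -0.74 for UNG. It was 0.94 for NEIL1, 0.87 for MUTYH and 0.80 for POLB, and -0.48 for OGG1 and 0.11 for XRCC1. Over all genes tested, 34.9% had an r under -0.5 and 35.9% over 0.5. With the share as a covariate, the combination against DMSO gave 5 calls among the 10 in place of 2, where 35.7% of all genes tested passed (3183 rose and 3266 fell) in place of 13.1%. NEIL3 (-2.60 ± 0.18), MUTYH (-0.80 ± 0.12), XRCC1 (-0.70 ± 0.14) and NEIL1 (-0.69 ± 0.12) fell and NEIL2 (0.68 ± 0.11) rose, and the PARP1 value turned to 0.35 ± 0.14 (edgeR adjusted p = 0.0647). NEIL1 and NEIL2 thus lay on opposite sides of 0 in both fits and passed only in the second.

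**Figure D3:**
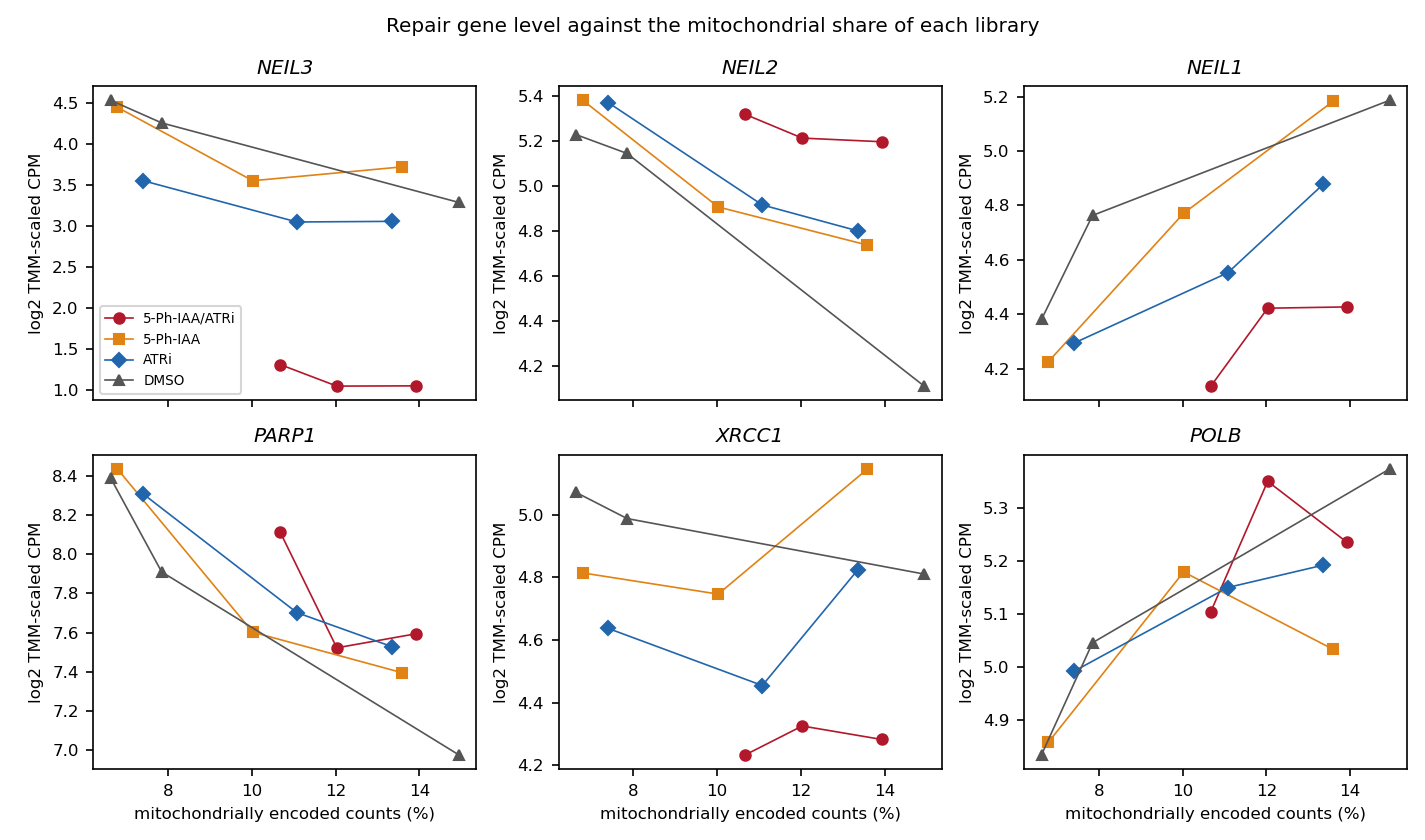
log2 TMM-scaled CPM (y axis) of 6 repair genes against the percentage of counts from mitochondrially encoded genes (x axis) in the 12 libraries, with lines joining the 3 libraries of a group. For NEIL3 and XRCC1 every combination library lies below every other library. The combination shares run from 10.7% to 13.9%, so no combination library shows the lower shares found in the other groups. PARP1 is highest in the library with the lowest share in each group.

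Because NEIL3 and NEIL2 both fell with the mitochondrial share within groups, their ratio inside a library was added after the data had been seen. The log2 ratio of NEIL3 to NEIL2 was -4.14, -4.16 and -4.01 in the combination, -1.02, -1.36 and -0.94 with 5-Ph-IAA, -1.74, -1.87 and -1.82 with ATRi, and -0.89, -0.82 and -0.70 with DMSO. The DMSO libraries, replicate 2 included, lay within a narrow range, and each treated group was below all of them. The difference from DMSO was -3.30 for the combination, -0.30 for 5-Ph-IAA and -1.01 for ATRi, each with p = 0.1 in a 2-sided exact permutation test, the smallest p that 3 against 3 libraries allow. The ratio to NEIL1, which moved the other way with the share, differed by -2.44 in the combination (exact p = 0.1), -0.07 with 5-Ph-IAA (exact p = 1) and -0.60 with ATRi (exact p = 0.5). Leaving out 1 library, the difference in this second ratio ran from -3.01 to -1.99 for the combination. It ran from -0.64 to 0.38 for 5-Ph-IAA and from -1.18 to -0.15 for ATRi. The sign of the 5-Ph-IAA value depended on which library was left out, in either group. For the ratio to NEIL2 the ranges, in the same order, were -3.35 to -3.25, -0.38 to -0.17 and -1.05 to -0.95.

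**Figure D4:**
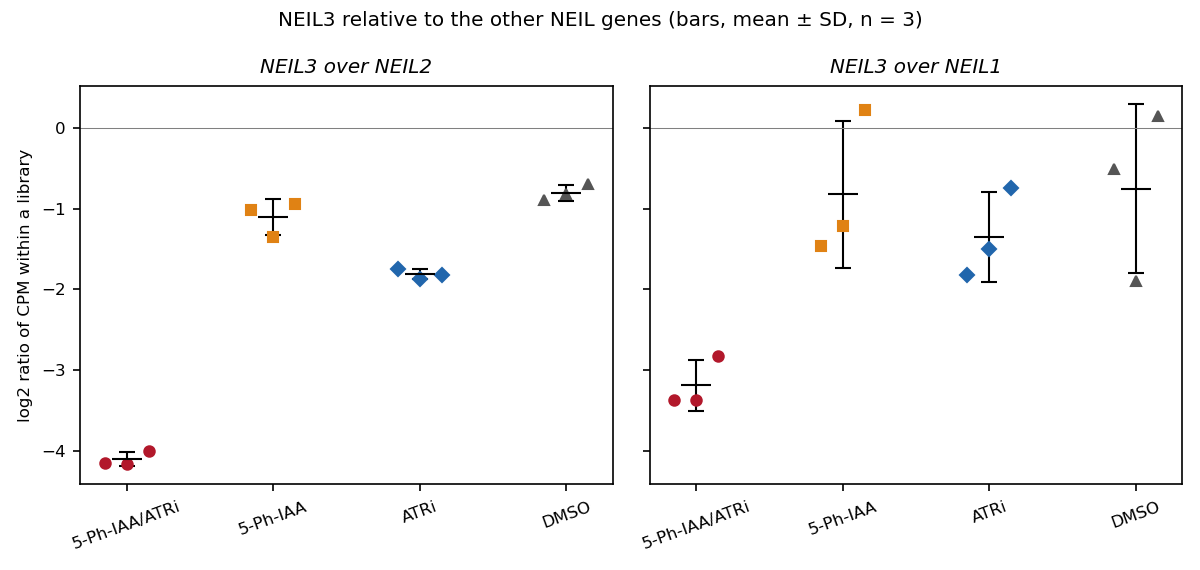
log2 ratio of NEIL3 to NEIL2 (left) and to NEIL1 (right) within each library (y axis) by treatment (x axis), with bars for mean ± SD (n = 3). The combination lies near -4.11 for NEIL3 over NEIL2, against -0.80 in DMSO, and the spread is wider for NEIL3 over NEIL1.

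Of 28 other genes of these pathways, 3 fell and none rose in the combination against DMSO, where 13.1% of all genes tested changed. An unadjusted p under 0.05 was found for 16 of the 28 and for 26.8% of all genes tested. The median log2 change of the 28 was -0.20, against -0.02 over all genes tested. HPF1, the partner that directs PARP1 to serine residues, had 20.4, 21.0 and 20.1 CPM in the combination, against 33.8, 27.5 and 33.6 CPM in DMSO, and changed by -0.63 ± 0.11 (edgeR adjusted p = 0.00454). DUT, which keeps dUTP out of DNA, had 36.2, 33.6 and 33.2 CPM in the combination, against 66.6, 51.2 and 64.4 CPM in DMSO, and changed by -0.82 ± 0.15 (edgeR adjusted p = 0.00427). These groups did not overlap for either gene. POLD1, the catalytic subunit of polymerase delta, changed by -0.91 ± 0.26 (edgeR adjusted p = 0.0407), a call lost with limma-voom (adjusted p = 0.0658), with only the groups compared (0.0672), and without any 1 of the combination libraries, DMSO replicate 1 or DMSO replicate 3 (0.0913 to 0.135, and 0.00225 to 0.135 over all alternatives).

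By role, the 5 other glycosylases had a median log2 change of 0.15, the 6 end-processing enzymes -0.05 and the 5 ADP-ribosylation genes 0.10. The 10 genes of gap filling and ligation had a median of -0.50. Their changes ran from -1.31 to 1.103, 7 below 0 and 3 above, and 1 of the 10 passed. For the 2 pool-sanitising enzymes, DUT and NUDT1, the median was -0.83, and only DUT passed. PCNA, the sliding clamp, was higher in every combination library than in every DMSO library, at 390, 444 and 372 CPM against 205, 91.3 and 265 CPM, with a log2 change of 1.103 ± 0.36 (edgeR adjusted p = 0.0686). With each compound alone none of the 28 passed with edgeR, DESeq2 or limma-voom. In the main fit 0.00554% (5-Ph-IAA) and 0.0665% (ATRi) of all genes tested passed. An unadjusted p under 0.05 was found for 0 (5-Ph-IAA) and 1 (ATRi) of the 28, and for 1.32% and 4.86% of all genes tested. Against 5-Ph-IAA alone 3 of the 28 passed in the combination, where 9.41% of all genes tested changed. These were HPF1 (-0.72 ± 0.11), DUT (-0.71 ± 0.15) and NUDT1 (-1.21 ± 0.32), which clears oxidised nucleotides. With the replicate block 9 of the 28 passed, 7 lower and 2 higher, where 19.6% of all genes tested did. The DUT call was lost without combination replicate 2 or 3 (edgeR adjusted p 0.0546 and 0.0568) and with the 8 libraries (0.0602). The NUDT1 call was lost without any 1 of the combination libraries or 5-Ph-IAA replicate 1 or 3 (edgeR adjusted p 0.0563 to 0.127). It was also lost with limma-voom (adjusted p 0.0597) and with the 8 libraries (edgeR adjusted p 0.114). Against ATRi alone, where 3.51% of all genes tested changed, only HPF1 passed (edgeR adjusted p = 0.0340). It did not pass in any fit that left out 1 library (0.0797 to 0.136, and 0.000266 to 0.151 over all alternatives). PCNA and NUDT1 were named after their values were seen.

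**Figure D5:**
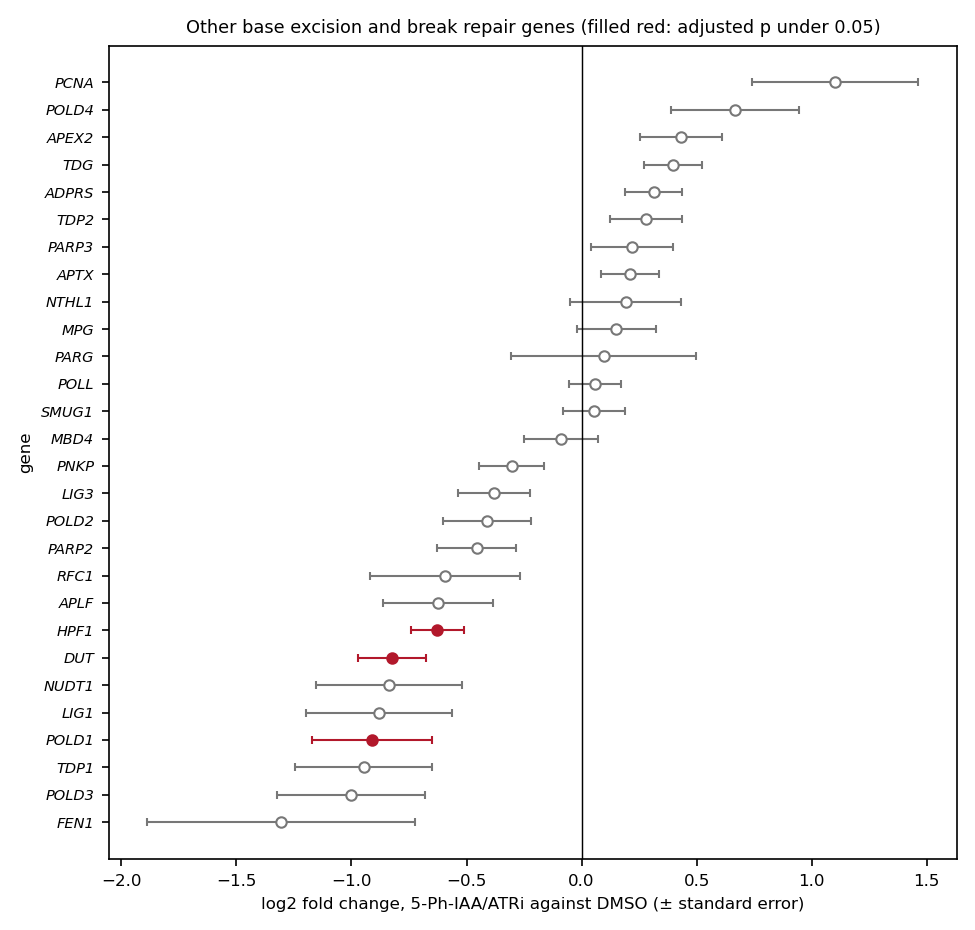
log2 fold change in the combination against DMSO (x axis) ± standard error of 28 other base excision and break repair genes (y axis), ordered by value. Filled symbols are HPF1 (-0.63), DUT (-0.82) and POLD1 (-0.91), which passed the threshold of 0.05, and PCNA lies highest at 1.103.

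Over the 12 libraries, the genes whose log2 level was most like that of NEIL3 were KIF23 (Pearson's r = 0.996), CENPF (0.995) and NUSAP1 (0.993), and 195 genes had an r over 0.95. Those most like XRCC1 were FOXRED1 (0.975), PSMC3IP (0.972) and MIS18A (0.972), with 34 genes over 0.95. The correlations include the combination and DMSO libraries, so the direction of these genes between those groups follows from how they were picked. As a description, their log2 changes in the combination against DMSO were -2.18, -2.62 and -2.17 for the NEIL3 group and -0.52, -1.34 and -1.03 for the XRCC1 group. NEIL3 and XRCC1 themselves had an r of 0.87 over the 12 libraries and 0.23 within groups. Within groups, NEIL3 followed PARP1 (0.96), NEIL2 (0.96) and UNG (0.95) and ran against POLB (-0.95). Both genes of a pair were read in the same libraries, with the same depth and mitochondrial share in each.

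The strand setting of the counting is not given in the sources used here, so values of genes that overlap another on the opposite strand are uncertain: OGG1 with CAMK1 and TADA3, MUTYH with TOE1, NEIL1 with MAN2C1, and APEX1 with PIP4P1. The antisense neighbour of NEIL3 held at most 1 count in a library and the genes overlapping XRCC1 at most 9. Pseudogenes of UNG and PARP1 held at most 2 counts.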

How the data were processed

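Values are estimated counts per gene in 12 libraries, which the authors made with Salmon 1.10.1 and deposited, with STAR 2.7.9a, Trim Galore 0.6.7 and build GRCh38.p14 listed per the submitters' processing notes; the annotation release is not given in the sources used here. They were rounded to whole numbers (13.6% were not whole, 6.93% by over 0.01), filtered with filterByExpr (18049 genes kept) and scaled by TMM. Levels are TMM-scaled CPM. Differences were tested with edgeR 4.0.16 (limma 3.58.1, R 4.3.3), quasi-likelihood F test, 1 mean per group over all 12 libraries, Benjamini-Hochberg over all genes tested, threshold 0.05. The standard error given after ± for an edgeR log2 change is the size of the change divided by the square root of F. Groups came from the sample titles. Deviations from the group means correlated at 0.37, 0.18 and 0.54 between same-numbered libraries of the combination and 5-Ph-IAA, so these numbers were taken as pairs from the data, though the labels do not say what they share; in every other comparison made at least 1 pair was at or under 0.1. The median biological coefficient of variation was 0.214, and no replicate pair was a copy of another. Alternatives were DESeq2 size factors, total counts, no filter, at least 1 CPM in 3 libraries, DESeq2 1.42.0, limma-voom, only the groups compared, a replicate block, a mitochondrial covariate, and leaving out each library. The NEIL ratios, and a fit of the 8 libraries left when each group drops its most mitochondrial one, were added after seeing the data. The genes and lists were chosen with earlier results of these data known. Named genes were the 10, other pathway genes past the threshold in the combination or a single compound against DMSO, the 3 most like each called gene, and 5 genes that mark the treatment, of which CDC25C is printed and TIMELESS is named without a value. PCNA and NUDT1 fall outside this rule and were named after their values were seen. The procedure was tested on simulated data for the combination against DMSO. It recovered 50% of 100 genes given a 2-fold change and 99% of 100 given a 4-fold change, so 2-fold changes can be missed. Some marker values are not reported here.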

Additional observations from a re-analysis of the deposited data

Results flagged for a closer look

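CDC25C, a phosphatase that drives entry into mitosis and a marker gene of the treatment here, had an interaction of -2.20 ± 0.21 on the log2 scale (edgeR adjusted p = 0.00358): its change in the combination differed from the sum of the changes with each compound. Its level was 1.93, 2.07 and 2.17 CPM in the combination, 14.9, 16.1 and 19.2 CPM with 5-Ph-IAA, 9.75, 9.10 and 10.2 CPM with ATRi, and 16.8, 14.98 and 19.7 CPM with DMSO. The call held in 20 of 21 alternatives and was lost with 8 libraries (adjusted p = 0.225, and 9.35e-15 to 0.225 over the alternatives). The lowest CDC25C library held 54 counts, so its combination level rests on few reads. CDC25C was listed as a treatment marker with earlier results of these data known. Only genes reported here were screened for this flag, so it is a description. The interaction of NEIL3 went in the same direction and did not pass.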

How the results depend on the processing

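Falls of NEIL3, XRCC1, HPF1 and DUT in the combination against DMSO passed under all 16 alternatives, and for the single compounds no alternative gave a call among the 10 genes or the 28 others. The counts of calls that moved most are given here, with the 10 genes first and the other pathway genes after them. In the combination against DMSO, 2 and 3 were called in the main analysis. The covariate for mitochondrial share gave 5 and 13, and the replicate block 4 and 16, with 6449 and 4569 over all genes in place of 2370. The other pathway genes called were 7 with no count filter, 8 with DESeq2 and 5 with the 8 libraries. Over all genes tested, 4.73% of 40661, 18.1% of 18049 and 9.01% of 18026 passed in these fits, against 13.1% in the main analysis. Against 5-Ph-IAA 2 and 3 were called. The covariate there gave 5 and 13 and the replicate block 4 and 9, with 5507 and 3546 over all genes in place of 1699. The 8 libraries gave 1 and 1 (4.47% over all genes tested, against 9.41% in the main analysis). Only the groups compared left 1 of the 10 genes (6.07% over all genes tested), and DESeq2 called 5 other pathway genes (14.2%). Against ATRi, with 1 and 1 called, the covariate gave 4 and 4, with 3188 over all genes in place of 634. The 8 libraries gave 0 and 0 (0.355% over all genes tested, against 3.51% in the main analysis). For the other pathway genes there, no count filter gave 0, DESeq2 2, only the groups compared 6 and the replicate block 4. Over all genes tested, 1.23%, 8%, 5.68% and 11% (1980 genes) passed in these fits. In the interaction, with 0 called, no count filter, DESeq2, the replicate block and the covariate each called 1 of the 10 genes, NEIL3, and DESeq2 called 1 other pathway gene, HPF1. Leaving out 1 library gave 2 to 3 and 2 to 9 calls against DMSO (9 without DMSO replicate 2), 1 to 3 and 1 to 4 against 5-Ph-IAA, and 0 to 1 and 0 to 0 against ATRi. Over all genes tested, these fits called 6.68% to 12.9% against DMSO (12.9% without DMSO replicate 2), 4.21% to 7.26% against 5-Ph-IAA and 0.726% to 1.2% against ATRi.

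Samples of the same set number had deviations that correlated from -0.09 to 0.76. They were taken as pairs, from the data, only between the combination and 5-Ph-IAA. The replicate block was fitted over all 12 libraries, so its values also rest on groups that were not taken as pairs. With the replicate block, UNG (edgeR adjusted p = 0.0210) and MUTYH (0.00700) also passed against DMSO, where 25.3% of all genes tested did. Same-numbered libraries of the combination and DMSO correlated at -0.08, 0.27 and 0.52, and the labels do not say what they share.

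Of 60 log2 changes (10 genes, 6 comparisons), 32 kept their sign under every alternative. The other 28, none over 0.22 in size, changed sign at least once. With 8 libraries the values turned to -0.081 for APEX1 in the combination against DMSO, to -0.19 for UNG, -0.017 for NEIL2, -0.086 for PARP1 and 0.091 for POLB with 5-Ph-IAA, to -0.019 for NEIL2, -0.036 for APEX1 and -0.13 for PARP1 with ATRi, and to 0.037 for OGG1 in the combination against ATRi. With the covariate, PARP1 turned to 0.35 against DMSO, 0.25 against 5-Ph-IAA, 0.15 against ATRi and 0.042 in the interaction, OGG1 to 0.023 and APEX1 to 0.053 against ATRi, and POLB to -0.0100 with ATRi alone. Total counts gave -0.029 for APEX1 in the combination, -0.0063 for PARP1 with ATRi and -0.018 for APEX1 in the interaction. With no count filter APEX1 was -0.012 in the combination and -0.027 in the interaction, and OGG1 was 0.00058 against ATRi with at least 1 CPM in 3 libraries. The interaction of APEX1 was -0.0017 with DESeq2 size factors and with DESeq2, -0.011 with limma-voom and -0.00046 with the replicate block.

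Leaving out 1 library, the combination against DMSO ran from -0.14 to 0.10 for APEX1 and from -0.40 to 0.25 for PARP1. With 5-Ph-IAA the ranges were -0.29 to 0.36 for UNG, -0.15 to 0.070 for OGG1, -0.26 to 0.10 for MUTYH, -0.29 to 0.19 for NEIL1, -0.15 to 0.33 for NEIL2, -0.48 to 0.12 for NEIL3, -0.17 to 0.076 for APEX1, -0.18 to 0.028 for XRCC1, -0.37 to 0.38 for PARP1 and -0.18 to 0.085 for POLB. With ATRi they were -0.47 to 0.14 for UNG, -0.40 to 0.010 for NEIL1, -0.14 to 0.33 for NEIL2, -0.10 to 0.14 for APEX1, -0.28 to 0.37 for PARP1 and -0.11 to 0.17 for POLB. Against 5-Ph-IAA they were -0.041 to 0.095 for APEX1 and -0.33 to 0.26 for PARP1, and against ATRi -0.087 to 0.049 for OGG1, -0.097 to 0.023 for APEX1 and -0.33 to 0.15 for PARP1. In the interaction they were -0.089 to 0.13 for OGG1, -0.46 to 0.026 for NEIL1, -0.14 to 0.34 for NEIL2, -0.11 to 0.14 for APEX1 and -0.50 to 0.25 for PARP1. The causes of these changes were not tested. With 3 libraries a group and a median biological coefficient of variation of 0.214, changes of the 10 genes may have gone undetected.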
